A study of Caenorhabditis elegans with 18 samples.

Results

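The vitellogenins, which are the yolk proteins of the nematode, were followed in whole-worm RNA together with the receptor, the lipid transfer protein and the regulators that serve them. The set held 10 genes of the 46748 gene identifiers counted. They were chosen by name, through the WBcel235 annotation, as vit-1 to vit-6, rme-2, dsc-4, ceh-60 and unc-62, and all 10 were found and passed the filter on low counts in each comparison. RNA was taken from day-1 adults of Caenorhabditis elegans, either N2, the wild type (WT), or CF2473, a strain that carries the allele ire-1(ok799) in the gene of a stress sensor of the endoplasmic reticulum (ER). Worms of both strains grew at 15 °C for 5 days from the egg. Control worms were harvested then, and cold worms were harvested after a further 24 h at 2 °C, so that cold worms were also 24 h older than control worms, and the effects of age and of cold cannot be told apart. WT had 6 libraries in each condition, replicates 1 to 3 in a first count table (experiment 1) and replicates 4 to 6 in a second (experiment 2). The mutant had 3 libraries in each condition, all in experiment 1. The submitters call the replicates biological without saying whether they were separate cultures, so p-values measure the spread between these libraries. The mutation is in every tissue of the mutant worms, which are 1 strain with 1 allele, and no rescued strain is among the 18 libraries.

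Yolk is made in one tissue and used in another. The intestine of the adult hermaphrodite makes vitellogenins, which are large lipid-carrying proteins related to the apolipoprotein B of mammals, and secretes them through the ER into the body cavity. Growing oocytes take them up by endocytosis through RME-2, a receptor of the low-density lipoprotein receptor family. DSC-4 is the large subunit of the microsomal triglyceride transfer protein, which loads lipid onto such proteins in the ER. CEH-60, a homeodomain protein of the PBX family, and UNC-62, of the MEIS family, are transcription factors that bind vitellogenin genes in the intestine and are needed for their full expression.

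Total gene counts ran from 20621965 to 29518450 per library in experiment 1 and from 10449794 to 16814732 in experiment 2. The targeted gene ire-1 had 36.6 to 63.8 CPM in the 6 mutant libraries, below the 85.4 to 228 CPM of the 12 WT libraries. Levels are in CPM, read counts scaled to library size, with library sizes adjusted by TMM, a factor that corrects for the makeup of each library. In 4 libraries, replicate 1 of the controls and replicate 2 of the cold worms in either strain, the summed level of 37 sperm genes was 285 to 1262 CPM, against 1.68 to 103 CPM in the other 14. These sperm-rich libraries were also high in hypodermis markers (949.6 to 2799 against 189.9 to 806 CPM) and body muscle markers (4002 to 7878 against 679 to 2925 CPM). Each group of experiment 1 held 1 of them. Some results are also given without them, and a result given only with them may still depend on them.

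The vitellogenins were among the most abundant messages of the worm. In WT control worms their share of all counts was 8.64 ± 2.20% (SD, n = 6). Ranked by mean CPM per kilobase of exon among 19641 protein-coding genes, vit-2 stood at 3, vit-6 at 4, vit-5 at 17, vit-3 at 133 and vit-4 at 181, with vit-1 between vit-5 and vit-3. Per length, vit-2 (5688 ± 1938 CPM per kilobase, SD, n = 6) and vit-6 (5639 ± 1538) could not be separated, followed by vit-5 (3165 ± 1116), vit-1 (1337 ± 129), vit-3 (1011 ± 229.6) and vit-4 (657 ± 147). By the mean ± SD, vit-2 and vit-6 overlapped with vit-5, vit-1 with vit-3, and vit-3 with vit-4. The receptor rme-2 followed at 321 ± 162 CPM per kilobase, rank 333, its mean ± SD clear of that of vit-4. Single libraries overlapped, with 536 as the highest value of rme-2 and 523 as the lowest of vit-4. The other members were lower still, dsc-4 at 20.4 ± 10.3, unc-62 at 4.91 ± 0.822 and ceh-60 at 3.43 ± 1.76 CPM per kilobase, the last pair overlapping. In the cold, vit-2 stood at rank 28 and vit-6 at rank 41 in WT, and at ranks 71 and 88 in the mutant, while rme-2 stood at rank 259 in WT and 226 in the mutant.

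All vitellogenin genes but vit-6 lie on chromosome X. In WBcel235 coordinates vit-1 is at X:7727889-7733168, vit-2 at X:5101042-5106169 and vit-5 at X:3403471-3408603, all on the plus strand. On the minus strand, vit-4 (X:3558769-3563965) and vit-3 (X:3567355-3572549) are neighbours with 3389 bases between them. The genes vit-3, vit-4 and vit-5 are near-identical in sequence, and vit-1 and vit-2 resemble each other too, so reads that match more than 1 gene could be dropped or misassigned. How the counting treated such reads is not given in the sources used here, and their separate levels are therefore uncertain. On chromosome IV are vit-6 (IV:8261157-8266459, plus), rme-2 (IV:5470026-5473174, plus) and dsc-4 (IV:315056-320544, minus). The regulators are ceh-60 (X:6522596-6530146, minus) and unc-62 (V:4497461-4511449, plus). Genes annotated on the strand opposite vit-2, vit-3 and vit-4 had at most 32 counts over the 18 libraries together. The span of ceh-60 overlaps ets-4 on the other strand, which had 5980 counts over the 18 libraries against 1785 for ceh-60, and the strand setting of the counting is not given in the sources used here, so reads of ceh-60 and ets-4 may not be told apart.

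**Figure D1:**
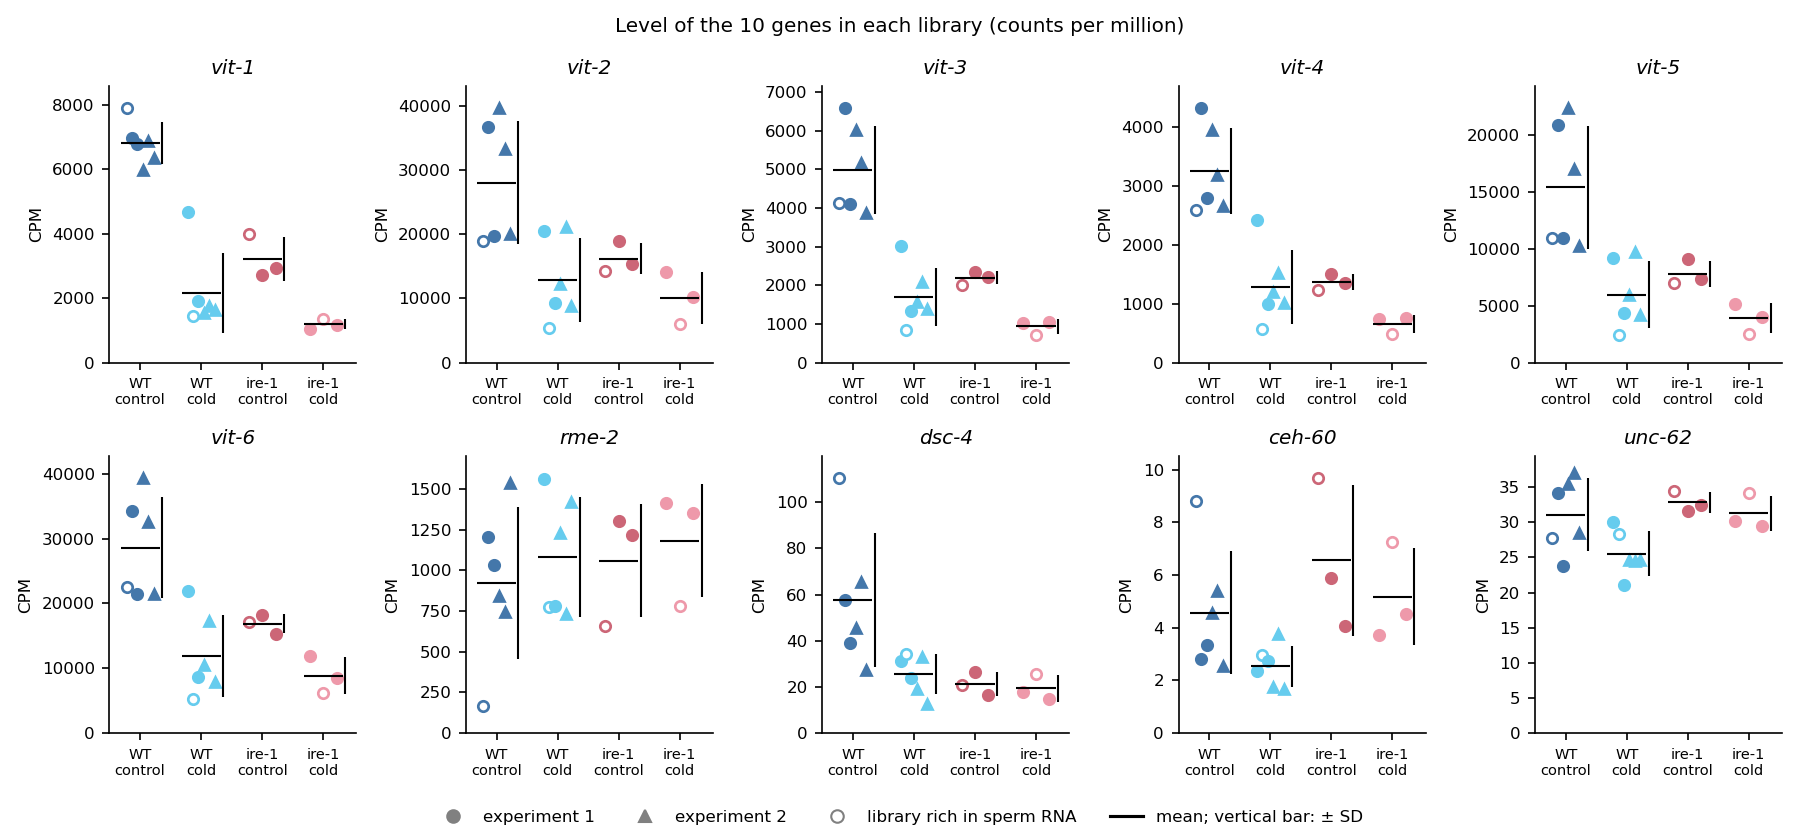
Level of each of the 10 genes in CPM (linear axis from 0) in every library, by group; circles are experiment 1, triangles experiment 2, open circles the 4 sperm-rich libraries, horizontal lines the group mean and vertical bars ± SD. For vit-1 the 6 WT control libraries lie between 5965 and 7897 CPM and the 6 WT cold libraries between 1455 and 4669, while for rme-2 the groups overlap.

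All 6 vitellogenins fell in WT worms after 24 h at 2 °C. Together with dsc-4 they made 7 of the 10 genes that were lower by edgeR's quasi-likelihood test with Benjamini-Hochberg adjustment over all genes, and none of the 10 rose. Among all genes tested 10.4% were called lower and 2.7% were called higher. The median log2 fold change was -1.26 over the 10 genes and -0.07 over all genes tested. In whole-worm RNA a lower level can mean a smaller share of a tissue in the RNA or less of the message within that tissue. These cannot be told apart.

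The clearest separation was in vit-1, a yolk protein gene and close relative of vit-2. Its WT control level ran from 5965 to 7897 CPM with a median of 6824, and its WT cold level from 1455 to 4669 CPM with a median of 1690.5. No cold library reached the lowest control library, and WT cold 1 lay well above the other 5 cold libraries. The log2 fold change was -1.75 ± 0.24 (SE, adjusted p = 0.000896). Without the 4 sperm-rich libraries it was -1.61 (adjusted p = 0.00300), and with experiment 2 alone -1.97 ± 0.16 (adjusted p = 0.0435).

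The more abundant vit-2, whose product is a major yolk protein, ran from 18933 to 39743 CPM in WT control worms, with a median of 26611. In WT cold worms it ran from 5358 to 21138 CPM, with a median of 10770.4. The groups overlapped, since WT cold 1 and WT cold 5 (20573 and 21138 CPM) lay above 3 of the 6 control libraries. On the log2 scale the change was -1.17 ± 0.33 (adjusted p = 0.0362). It was not called without the 4 sperm-rich libraries (-1.06, adjusted p = 0.0650), nor when any of WT control 1, 2, 4 or 5 or WT cold 2, 3, 4 or 6 was left out, with an adjusted p of at most 0.102.

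For the near-identical genes the direction was the same in each. The level of vit-3 ran from 3860.5 to 6586 CPM (median 4655) in WT control and from 829 to 3004 CPM (median 1475) in WT cold. For vit-4 the control range was 2581 to 4318 CPM (median 2987) and the cold range 562 to 2412 CPM (median 1106). The most abundant of the 3, vit-5, ran from 10250.4 to 22400.1 CPM (median 13991) in control and from 2414 to 9698 CPM (median 5158) in the cold. None of these 3 genes had a cold library as high as its lowest control library, with WT cold 1 or WT cold 5 the highest of the cold group. Log2 fold changes were -1.60 ± 0.27 for vit-3 (adjusted p = 0.00279), -1.39 ± 0.28 for vit-4 (adjusted p = 0.00794) and -1.42 ± 0.33 for vit-5 (adjusted p = 0.0158). With the counts of the 3 genes summed, so that a read assigned to the wrong one of them does no harm, the log2 fold change was -1.45 ± 0.31 (adjusted p = 0.0101). Leaving out WT control 4 ended the call of vit-5 (adjusted p = 0.0505).

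The gene vit-6, the one on an autosome, encodes a precursor that is cleaved into smaller yolk proteins. Its level ran from 21381 to 39311 CPM (median 27511) in WT control and from 5271 to 21894 CPM (median 9563) in WT cold. The ranges touched through 1 library, WT cold 1, which at 21894 CPM was above WT control 3 and WT control 6. It changed by -1.31 ± 0.32 on the log2 scale (adjusted p = 0.0200) and -1.19 without the sperm-rich libraries (adjusted p = 0.0406). It lost the call when WT control 4 or 5 or WT cold 3, 4 or 6 was left out, with an adjusted p of at most 0.0603.

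Without the 4 sperm-rich libraries 5 of the 10 genes were called lower, all of them vitellogenins, against 8.24% of all genes. Leaving out 1 library at a time gave 3 called genes of the 10 without WT control 4, 4 without WT control 5 or WT cold 3, 4 or 6, and 5 to 7 without any of the others. Within single experiments, 3 libraries against 3, edgeR called none of the 10 in experiment 1 (5 at an unadjusted p under 0.05, as were 1912 of all 12538 genes), where 0.0239% of genes were, and 1 of the 10 (vit-1) in experiment 2, where 0.425% were. The direction held in both, with vitellogenin log2 fold changes of -1.06 to -1.48 in experiment 1 and -1.14 to -1.97 in experiment 2. The difference between the experiments in the cold response was called in 0 genes by edgeR, with 71 genes at an unadjusted p under 0.05. Counting single libraries instead, 4 of the 10 genes (vit-1, vit-3, vit-4 and vit-5) were lower in every cold library than in every control library within either experiment, against 6.81% of all genes. The same 4 genes did not overlap with all 6 cold libraries set against all 6 control libraries, against 4.9% of all genes.

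Summed over the 6 genes, the vitellogenin level was 87058 ± 24165 CPM in WT control (SD, n = 6) and 35901 ± 17878 CPM in WT cold (n = 6). The ranges, 64506 to 117367 and 15889 to 61770.2 CPM, did not overlap. As a share of all counts this was 8.64 ± 2.20% against 3.49 ± 1.60%, and counting error on such a share was at most 0.0167 percentage points (95% Wilson half-width, counting error only). Markers of the intestine, the tissue that makes yolk, were lower in the WT cold group as well, with overlap, and so were those of some other tissues. The summed level of 12 intestine markers was 5059 ± 2133 CPM in WT control (2151 to 7066) and 1783 ± 1026 CPM in WT cold (764 to 3763). Of the 11 that could be tested, 8 fell, with a median log2 fold change of -1.54, and 5 fell without the sperm-rich libraries. That count was 4 or 5 without any one of WT control 1, 2, 4 or 5 or WT cold 1, 3, 4 or 6. It was 6 without WT cold 2, 9 without WT control 3, 10 without WT control 6 and 11 without WT cold 5. DESeq2, limma-voom and the replicate block each gave 10. None of the 12 was at 0 in every library. The vitellogenin sum divided by the intestine marker sum was 19.2 ± 6.60 in WT control and 23.1 ± 12.6 in WT cold, a difference smaller than the spread. Of 5 hypodermis and cuticle markers tested 3 fell and all 5 were below 0, with a median of -1.93. All 18 sperm genes tested were below 0, with a median of -1.47, and edgeR called 0 of them, with 0 at an unadjusted p under 0.05 and 0 by DESeq2 or limma-voom. That direction rested on WT control 1, since without it the median of the 15 sperm genes tested was 1.01. Without the 4 sperm-rich libraries only 2 sperm genes could be tested (median -0.55). Of 8 neuron markers 1 rose and 0 fell (median -0.60), and of 6 body muscle markers 0 were called by edgeR, DESeq2 or limma-voom, with 0 at an unadjusted p under 0.05 (median -0.20). The part of the intestine and other markers in the fall of the vitellogenins was not tested.

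The make-up of the vitellogenin counts differed less than their sum. In WT control vit-2 held 31.8 ± 2.37% of them, vit-6 32.9 ± 0.901%, vit-3, vit-4 and vit-5 together 27.0 ± 1.17%, and vit-1 8.39 ± 2.62% (SD, n = 6). In WT cold the shares were 35.7 ± 2.31% for vit-2, 32.8 ± 1.39% for vit-6, 25.1 ± 1.17% for vit-3 to vit-5 and 6.40 ± 2.13% for vit-1. These shares were chosen for description after their values were seen, and no test was made. In experiment 1, the share of vit-3 to vit-5 was 26.4% to 29.0% in WT control and 22.4% to 24.5% in ire-1 control, and it was 23.7% to 25.3% in WT cold and 20.4% to 22.7% in ire-1 cold. The mutant libraries lay below the WT libraries of the same condition without overlap. The share of vit-1 ranged from 3.25% to 11.8% over the 12 WT libraries, and within each group of experiment 1 it was highest in the sperm-rich library.

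**Figure D2:**
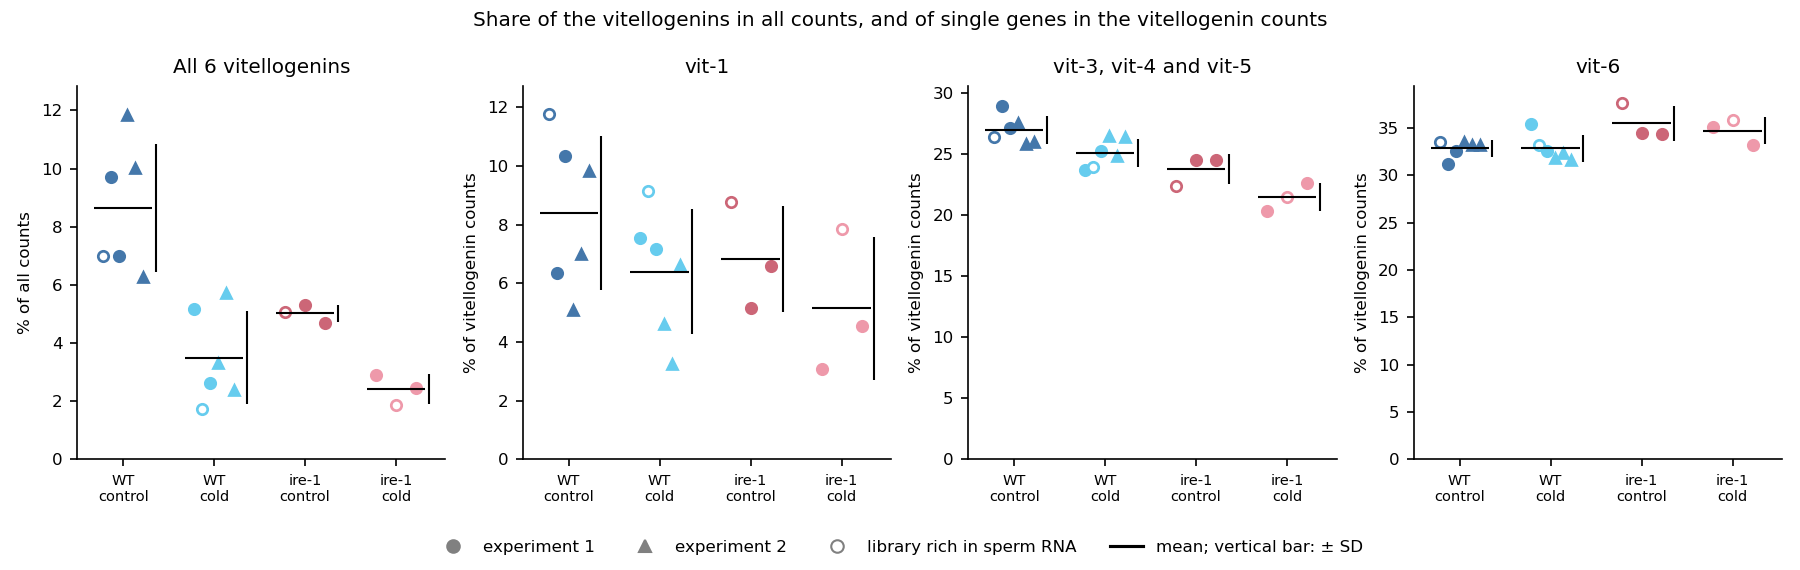
Share of the 6 vitellogenins in all counts (left, % of all counts) and of vit-1, of vit-3 to vit-5 together and of vit-6 in the vitellogenin counts (% of vitellogenin counts), by group, on linear axes from 0; symbols as for the levels, lines the mean and bars ± SD. The left panel shows WT cold libraries at 1.74% to 5.73% against 6.28% to 11.8% in WT control, and the third panel the lower share of vit-3 to vit-5 in ire-1 libraries.

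In the mutant every vitellogenin was lower in the cold in all 3 libraries, but none passed the test. Each of the 6 was lower in every ire-1 cold library than in every ire-1 control library, against 9.32% of all genes tested. For vit-1 the ire-1 control libraries had 3994, 2717 and 2927 CPM and the ire-1 cold libraries 1043, 1346 and 1169.8 CPM. For vit-2 the values were 14244, 18898 and 15355 CPM against 14088, 5972 and 10191 CPM, where ire-1 cold 1 came close to ire-1 control 1. Control and cold libraries were thus clearly apart for vit-1 and barely apart for vit-2.

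The lowest level of vit-3 in ire-1 control was 2007 CPM and its highest in ire-1 cold 1053 CPM, and for vit-4 these were 1233 and 751 CPM. For vit-5 the values were 6969.6, 9088 and 7329 CPM at 15 °C and 5160.1, 2497 and 4018 CPM in the cold. For vit-6 they were 17127, 18171 and 15269 CPM and 11949, 6149.6 and 8517 CPM. In vit-2 to vit-6 the sperm-rich ire-1 cold 2 was the lowest of the 3 cold libraries, and in vit-1 it was the highest. The log2 fold changes were -1.43 ± 0.36 for vit-1 (adjusted p = 0.179), -1.24 ± 0.36 for vit-3 (adjusted p = 0.272) and -0.70 to -1.06 for the other 4. By edgeR 0 of the 10 genes were called here and 5 had an unadjusted p under 0.05, as did 1009 of all 14344 genes. DESeq2 called 1 (vit-1, -1.39, adjusted p = 0.0131), where it called 342 of all 14344 genes, and limma-voom called 0 of the 10. Among all genes edgeR called 0.0558%. The summed level was 47583 ± 4488 CPM in ire-1 control and 25621 ± 8428 CPM in ire-1 cold (SD, n = 3 each), while intestine markers summed to 2076 ± 483 and 1883 ± 477 CPM, which overlapped. Of those 12 markers edgeR called 0 in this comparison, with 1 at an unadjusted p under 0.05 and 0 by DESeq2. The vitellogenin sum divided by the intestine marker sum was 23.7 ± 5.28 in ire-1 control and 14.5 ± 6.08 in ire-1 cold. The ranges overlapped (17.7 to 27.4 and 7.56 to 19.1).

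Between the strains at 15 °C no vitellogenin passed the main test, although single libraries were apart. Within experiment 1 all 6 vitellogenins and dsc-4, 7 of the 10 genes, were lower in every ire-1 control library than in every WT control library, against 10.2% of all genes. For vit-1 the WT values were 7897, 6957 and 6789 CPM against the mutant's 3994, 2717 and 2927 CPM. For vit-3 they were 4141, 6586 and 4108 CPM against 2007, 2345 and 2224 CPM, and for vit-4 2581, 4318 and 2790.3 CPM against 1233, 1506 and 1346 CPM. In each of these the gap between the strains was wider than the spread of the mutant libraries. For vit-2 the strains nearly met, with 18933 CPM as the lowest WT value and 18898 CPM as the highest in the mutant. The lowest WT and highest mutant values were 10944 and 9088 CPM for vit-5 and 21381 and 18171 CPM for vit-6.

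The log2 fold changes, mutant against WT, were -1.23 ± 0.36 for vit-1 (adjusted p = 0.214), -1.23 ± 0.36 for vit-3 (adjusted p = 0.219) and -1.30 ± 0.40 for vit-4 (adjusted p = 0.227). They were -0.93 ± 0.42 for vit-5, -0.69 ± 0.43 for vit-2 and -0.68 ± 0.41 for vit-6 (adjusted p = 0.404, 0.570 and 0.553). By edgeR 0 of the 10 genes were called and 5 had an unadjusted p under 0.05, as did 1742 of all 14344 genes. DESeq2 called 1 (dsc-4), where it called 296 of all 14344 genes, and limma-voom called 0 of the 10. Among all genes edgeR called 0.0627%. A further fit took same-numbered WT and ire-1 libraries of a condition as pairs, which the labels do not state. With this replicate block within each condition 3 of the 10 genes were called lower, against 2.1% of all genes. These were dsc-4 (-1.64 ± 0.26, adjusted p = 0.0161), vit-3 (-1.20 ± 0.25, adjusted p = 0.0365) and vit-4 (-1.27 ± 0.26, adjusted p = 0.0355). In that fit vit-1 had -1.24 (adjusted p = 0.0536) and vit-5 -0.87 (adjusted p = 0.0547). All 12 intestine markers had values below 0 in the same comparison (median -0.62). None of them was called by edgeR, 4 had an unadjusted p under 0.05, and DESeq2 called 3. Their sum in experiment 1 was 4951 ± 2090.5 CPM in WT control and 2076 ± 483 CPM in ire-1 control (SD, n = 3 each), and their part in the vitellogenin values was not tested.

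In the cold the strains overlapped in every vitellogenin but vit-1. The vitellogenin sum in experiment 1 was 34747 ± 24006 CPM in WT cold and 25621 ± 8428 CPM in ire-1 cold (SD, n = 3 each). That order, a log2 ratio of -0.44, rested on WT cold 1 (61770.2 CPM), since the other WT cold libraries of experiment 1 had 15889 and 26582 CPM, and without WT cold 1 the log2 ratio was 0.27. The values of vit-2, vit-5 and vit-6 turned from below 0 to 0.34, 0.082 and 0.24 without it. Only vit-1 of the 10 genes was lower in every ire-1 cold library than in every WT cold library of experiment 1, against 7.42% of all genes. Its WT cold values there were 4669, 1455 and 1906 CPM and its mutant values 1043, 1346 and 1169.8 CPM, so that only a narrow gap parted WT cold 2 from ire-1 cold 2. The log2 fold change of vit-1 was -1.16 ± 0.35 (adjusted p = 0.613), and it was -1.02 ± 0.40 for vit-4 and -0.89 ± 0.36 for vit-3. By edgeR 0 of the 10 genes were called, 3 had an unadjusted p under 0.05, as did 1098 of all 14344 genes, and DESeq2 and limma-voom called 0. Among all genes 0.0139% were called, and 0.153% with the replicate block within each condition, where none of the 10 was called either. Of the 12 intestine markers 11 were above 0 in the same comparison (median 0.33), where the 6 vitellogenins were below 0, and edgeR called 0 of them, with 0 at an unadjusted p under 0.05 and 0 by DESeq2.

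The yolk receptor gene rme-2, which oocytes express, was not called in any of the 5 comparisons. Its level ran from 165 to 1537 CPM in WT control (median 939) and from 728 to 1564 CPM in WT cold (median 1002). The mutant had 661, 1303 and 1216 CPM at 15 °C and 1411, 781 and 1355 CPM in the cold. The 4 groups overlapped, and the lowest value of all was in the sperm-rich WT control 1. The log2 fold change in the cold was 0.22 ± 0.37 in WT (adjusted p = 0.699) and 0.15 ± 0.56 in the mutant (adjusted p = 1.00). Between strains it was 0.38 ± 0.56 in control and 0.15 ± 0.56 in the cold, with adjusted p of 0.886 and 0.971.

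The level of rme-2 was low where oocyte and germline markers were low. A list of 22 oocyte and germline genes summed to 5389.8 CPM in WT control 1 and to 12754 to 22407 CPM in the 14 libraries that were not sperm-rich. The other sperm-rich libraries had 10892 (ire-1 control 1), 12104 (ire-1 cold 2) and 13542 CPM (WT cold 2), the last inside the range of those 14. Per 1000 CPM of that sum, rme-2 had 61.1 ± 16.4 CPM in WT control and 63.1 ± 6.16 in WT cold (SD, n = 6 each), and the mutant had 70.4 ± 8.50 in control and 70.5 ± 5.16 after the cold (n = 3 each). WT control 1 was again lowest, at 30.6. Of the 22 oocyte genes edgeR called 0 in WT cold, DESeq2 1 and limma-voom 0. An unadjusted p under 0.05 by edgeR was found for 2 of the 22, beside 3821 of all 11766 genes.

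**Figure D3:**
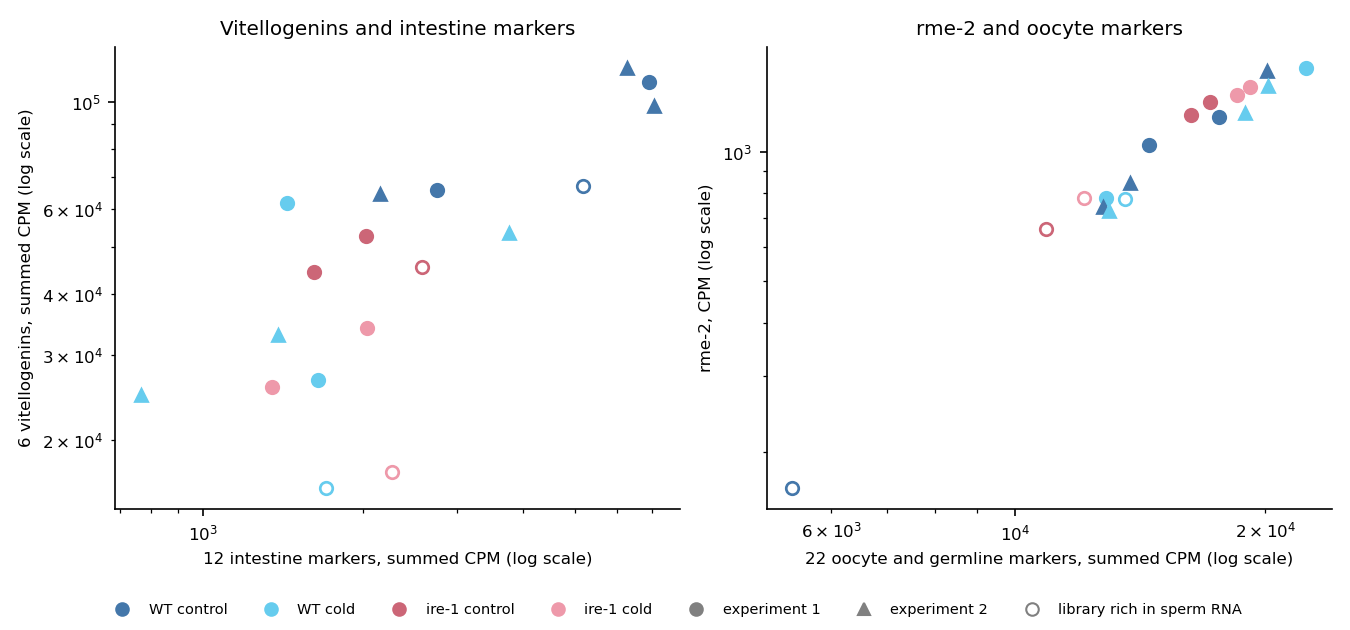
Left, summed CPM of the 6 vitellogenins against the summed CPM of 12 intestine markers; right, rme-2 CPM against the summed CPM of 22 oocyte and germline markers; all axes are log scales, and each point is 1 of the 18 libraries, coloured by group, with triangles for experiment 2 and open circles for the 4 sperm-rich libraries. In the left panel WT cold libraries lie at 764 to 3763 CPM of intestine markers and WT control libraries at 2151 to 7066, and in the right panel WT control 1 lies lowest on both axes.

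The lipoprotein assembly gene dsc-4 fell in WT in the cold. Its control level ran from 27.5 to 110.4 CPM (median 51.7) and its cold level from 12.8 to 34.2 CPM (median 27.6). The groups overlapped at their edge, since 3 cold libraries lay above WT control 6, and the highest control value was in the sperm-rich WT control 1. Its log2 fold change was -1.21 ± 0.33 (adjusted p = 0.0300). It was -0.99 (adjusted p = 0.0625) without the sperm-rich libraries. The call was also lost when any of WT control 1, 4 or 5 or WT cold 1, 3, 4 or 6 was left out, with an adjusted p of at most 0.0886.

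In the mutant dsc-4 was low in both conditions. The ire-1 control libraries had 20.9, 26.6 and 16.4 CPM and the ire-1 cold libraries 17.8, 25.8 and 14.6 CPM. WT control libraries of experiment 1 had 110.4, 57.7 and 38.96 CPM, all above the 3 ire-1 control libraries, and WT cold libraries of experiment 1 had 31.1, 34.2 and 24.0 CPM, which overlapped with ire-1 cold. The cold response in the mutant was -0.12 ± 0.41 on the log2 scale (adjusted p = 1.00). The difference between the strains in the control was -1.79 ± 0.42 (adjusted p = 0.172), the largest of the 10 genes in that comparison. DESeq2 called it at -1.58 (adjusted p = 0.00330), as it called 296 of all 14344 genes. Without the sperm-rich libraries it was -1.10 (adjusted p = 0.182). In the cold the strains differed by -0.65 ± 0.41 (adjusted p = 0.825). The test of the difference in cold response gave 1.14 ± 0.58 (adjusted p = 0.996), and 0.30 without the sperm-rich libraries.

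The transcription factor ceh-60 had the fewest counts of the 10, 27 to 318 counts per library. Its WT control level ran from 2.54 to 8.82 CPM (median 3.94) and its WT cold level from 1.66 to 3.75 CPM (median 2.54). The mutant had 9.69, 5.89 and 4.08 CPM at 15 °C and 3.74, 7.25 and 4.54 CPM in the cold. WT cold and ire-1 cold barely overlapped, with 3.74 CPM in the lowest mutant library and 3.75 CPM in the highest WT cold library, which was WT cold 5 of experiment 2. In experiment 1, in which the strains were tested, WT cold ran from 2.34 to 2.94 CPM. Control and cold overlapped within each strain. The 3 highest values were in sperm-rich libraries. The log2 fold change in WT cold was -0.91 ± 0.37 (adjusted p = 0.115) and -0.60 without those libraries, and in the mutant it was -0.32 ± 0.54 (adjusted p = 1.00). Mutant against WT, it was 0.31 ± 0.54 in control and 0.92 ± 0.54 in the cold (adjusted p = 0.917 and 0.780). The overlap with ets-4 stated above applies to each of these values.

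Its partner unc-62 had similar levels in all groups. WT control libraries had 23.8 to 37.1 CPM (median 31.3) and WT cold libraries 21.1 to 30.1 CPM (median 24.6), with overlap. The mutant had 34.4, 31.6 and 32.5 CPM at 15 °C and 30.2, 34.2 and 29.5 CPM in the cold, inside the range of WT control. Cold gave a log2 fold change of -0.32 ± 0.16 in WT cold (adjusted p = 0.175) and -0.06 ± 0.21 in ire-1 cold (adjusted p = 1.00). Between strains it was 0.14 ± 0.21 in control and 0.21 ± 0.21 in the cold, neither called.

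**Figure D4:**
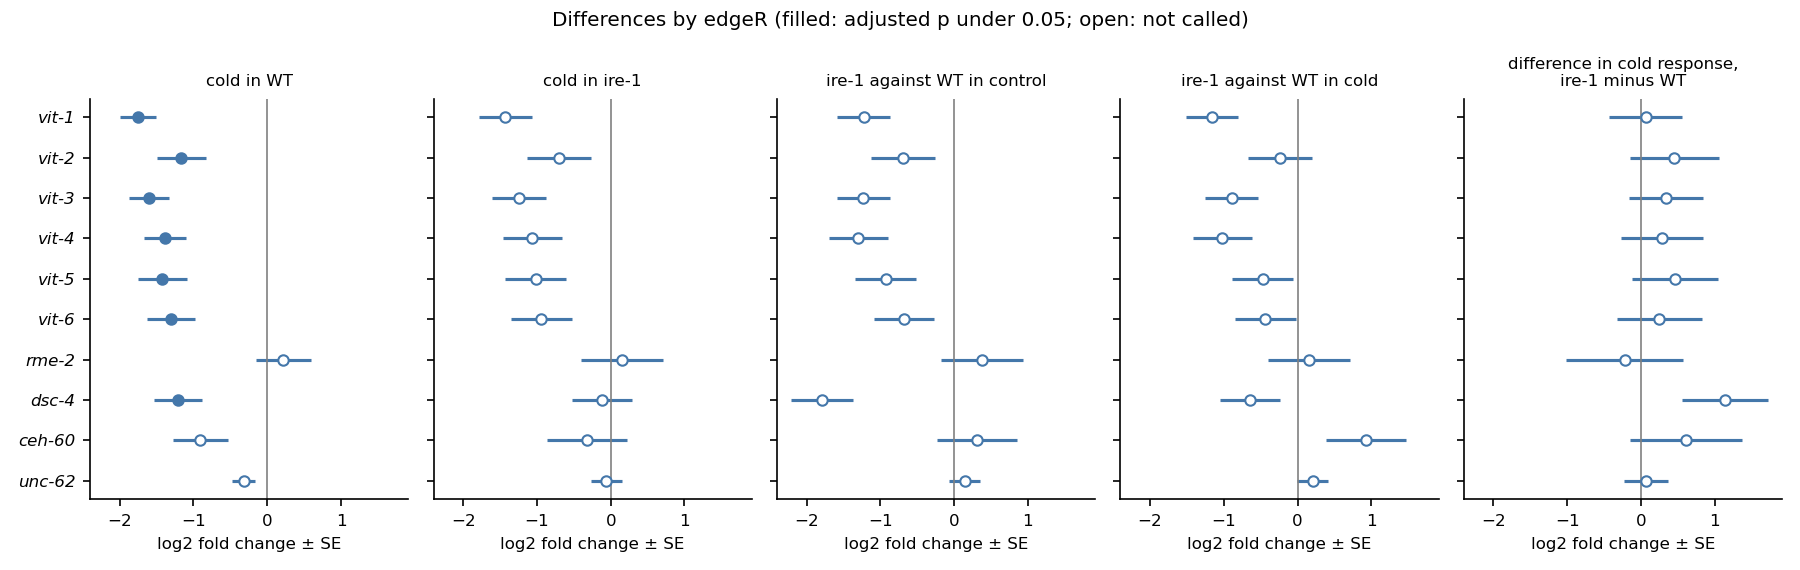
Log2 fold change (x axis) of each of the 10 genes (rows) in the 5 comparisons, by edgeR, with bars of ± 1 SE; filled points have an adjusted p under 0.05 and the vertical line marks no change. Filled points are the 6 vitellogenins and dsc-4 for cold in WT, from -1.75 (vit-1) to -1.17 (vit-2), and no point is filled in the other 4 panels.

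Whether the mutant responded to cold differently was tested directly, as the difference of the responses in experiment 1. The values, mutant minus WT, were 0.06 ± 0.50 for vit-1, 0.45 ± 0.61 for vit-2, 0.34 ± 0.51 for vit-3, 0.28 ± 0.56 for vit-4, 0.46 ± 0.58 for vit-5 and 0.25 ± 0.58 for vit-6 on the log2 scale. The values of vit-1 and unc-62 turned below 0 with RLE factors and with scaling without the vitellogenins (-0.083 and -0.037 with RLE), and those of vit-2 to vit-6 without WT control 2. The other values were -0.22 ± 0.79 for rme-2, 0.62 ± 0.76 for ceh-60 and 0.07 ± 0.30 for unc-62. The adjusted p was 0.996 for each of the 10 genes. By edgeR 0% of all genes were called, with 197 at an unadjusted p under 0.05 of which none was a member, and DESeq2 called 1 gene of all and none of the 10. The median over the 10 genes was 0.31 beside 0.12 over all genes. All 12 intestine markers were above 0 here (median 1.13), of which edgeR called 0, with 4 at an unadjusted p under 0.05 and 0 by DESeq2 or limma-voom. The 8 hypodermis markers and the 33 sperm genes tested were also all above 0 (medians 1.64 and 1.65), with 0 called by edgeR or DESeq2 and 1 hypodermis marker at an unadjusted p under 0.05. Both lists are high in the sperm-rich libraries, and these medians without those libraries are not given here. The part of the intestine, hypodermis and sperm lists in the members' values was not tested. The cold response of the vitellogenins was called in WT with 6 libraries a group and not in the mutant with 3, but a difference between the strains in that response was not detectable with 3 libraries a group in experiment 1.

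Other genes known to act on yolk genes were given from a list of 22 regulators, of which 21 could be tested in WT. In the cold edgeR called 3 of them lower and 0 higher, beside 10.4% of all genes called lower. An unadjusted p under 0.05 was found for 9 of the 21, beside 3821 of all 11766 genes. Their median log2 fold change was 0.13 beside -0.07 over all genes. The largest fall was in sbp-1, the homologue of the mammalian lipid regulator SREBP, from 33.9 ± 12.9 to 8.90 ± 2.12 CPM (SD, n = 6 each), a log2 fold change of -1.95 ± 0.22 (adjusted p = 0.000416). In the mutant sbp-1 had 26.7 ± 7.68 CPM in control and 8.06 ± 0.694 CPM in the cold (SD, n = 3 each; -1.72 ± 0.28, adjusted p = 0.0778). The nuclear receptor gene nhr-80, which acts in fatty acid desaturation, fell by 1.63 on the log2 scale in WT (SE 0.38, adjusted p = 0.0144). The intestinal GATA factor elt-7, which is also on the list of intestine markers, had -1.45 ± 0.38 (adjusted p = 0.0264). Its call was lost without the sperm-rich libraries (-1.42, adjusted p = 0.0586) and in 8 of the 12 fits that leave out 1 library. The developmental timing gene lin-14 had -1.17 ± 0.37 and was not called (adjusted p = 0.0561), though it was called without WT cold 5 or without WT control 6. Leaving out either of those libraries raised the number of regulators that fell to 6, when 1803 of 12285 and 1824 of 12428 of all genes did. Another 2 regulators rose without WT control 6, and 1 rose without WT control 3. DESeq2 called 6 of the 21 lower and 2 higher, where it called 1612 lower and 999 higher of 11766 genes, and limma-voom called 6 lower and 0 higher.

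Of 18 genes of endocytosis and yolk uptake, edgeR called 1 lower in WT cold and 0 higher, beside 10.4% and 2.7% of all genes. An unadjusted p under 0.05 was found for 2 of the 18, beside 3821 of all 11766 genes. DESeq2 called 1 lower and 2 higher, limma-voom 1 lower and 0 higher, and without WT control 6 edgeR called 1 lower and 1 higher. The median log2 fold change of the 18 was 0.05. The gene called lower by edgeR was aps-2, the small sigma subunit of the AP2 clathrin adaptor, at 22.7 ± 1.60 CPM in WT control and 17.2 ± 2.34 CPM in WT cold (-0.44 ± 0.13, adjusted p = 0.0463). Its call was lost in 9 of the 12 fits that leave out 1 library, without the sperm-rich libraries (adjusted p = 0.0898) with RLE factors, with scaling without the vitellogenins, with no filter, with the replicate block and with no term for experiment. The endosomal gene rme-8 had 0.47 ± 0.21 (adjusted p = 0.137), rab-7, a GTPase of late endosomes, had -0.35 ± 0.17 (adjusted p = 0.177) and dpy-23, the mu subunit of AP2, had -0.27 ± 0.13 (adjusted p = 0.176).

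Genes of COPII vesicles, which carry secreted proteins such as yolk out of the ER, were not called in any of the 5 comparisons as fitted for the main test. With all 18 libraries in 1 edgeR fit, 1 of the 12 was called lower in WT cold. In WT cold 11 of 12 had values above 0, with a median of 0.22, and DESeq2 and limma-voom called 0. An unadjusted p under 0.05 was found for 3 of the 12, beside 3821 of all 11766 genes. The value below 0 was that of sft-4, a cargo receptor for lipoprotein export (-0.40 ± 0.14, adjusted p = 0.0757). The coat gene sec-31 had 0.36 ± 0.15, sec-12, the exchange factor that starts coat assembly, had 0.32 ± 0.15, and tmem-131, which acts in collagen export, had 0.46 ± 0.22, with adjusted p of 0.132, 0.153 and 0.165. In the other 4 comparisons the main edgeR test called none of the genes of these 3 lists. For cold in the mutant 4 regulators and 2 uptake genes had an unadjusted p under 0.05, beside 1009 of all 14344 genes. DESeq2 called 1 regulator there, and 342 of all genes. Between the strains in control each list had 1 gene with such a p, beside 1742 of all genes. In the cold 1 regulator and 2 uptake genes did, beside 1098 of all genes. Of these DESeq2 called 1 uptake gene, and it called 46 of all genes. For the difference in cold response no gene of the 3 lists had such a p.

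The genes whose level was most like that of the vitellogenin sum over the 18 libraries, after the mean of each experiment was taken off, were F48D6.4 (Pearson r = 0.897), C01B10.6 (0.894), dpf-2 (0.878), clec-186 (0.877) and M28.10 (0.865), of 6986 genes whose mean reached 10 CPM. For rme-2 they were puf-5 (0.997), egg-6 (0.994), puf-7 (0.993), W05F2.3 (0.993) and egg-4 (0.993). The points are libraries that share groups and depth, and WT control 1 is the lowest for rme-2, so these values describe the libraries and are given with no p. The gene puf-5, which encodes an RNA-binding protein of oocytes, is on the oocyte list used above.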

How the data were processed

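RNA from 18 samples of whole worms was sequenced after poly(A) selection and library preparation with NEBNext Ultra II RNA kits, per the labels' protocols. The authors deposited raw read counts per gene in 2 tables, one for each experiment, with 46748 gene identifiers in both. Per the submitters' processing notes, reads were handled with STAR 2.5.0a, bcl2fastq and HTSeq on WBcel235. Neither the annotation release nor the strand setting nor the treatment of reads that match several genes is given in the sources used here. Names and coordinates came from the Ensembl 115 annotation of WBcel235, which named 43693 identifiers. No protein or promoter sequences were used here.

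Counts were tested with edgeR 4.0.16 (R 4.3.3): TMM factors, filterByExpr with a minimum count of 10 and a minimum total of 15, the quasi-likelihood test, and Benjamini-Hochberg adjustment over all genes tested, called at 0.05. Cold in WT was fitted over the 12 WT libraries with a term for experiment. The other comparisons came from 1 fit of the 4 groups of experiment 1, so that they share control libraries. SEs were the log2 fold change over the square root of F. Levels are CPM on TMM-scaled library sizes over the 18 libraries. Alternatives were DESeq2 1.42.0, limma 3.58.1 (voom), RLE and upper-quartile factors, scaling without the vitellogenins, no filter, a replicate block, all 18 libraries in 1 fit, single experiments, leaving out single libraries and leaving out the 4 sperm-rich libraries. The scripts were tested on simulated data. Replicates differed by more than counting noise (smallest chi-square per degree of freedom 12.2), so each library counted as 1 sample.

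Members, lists and tests were chosen with earlier results of these data known. The 10 members were named always, and from each list of other genes up to 4 with the smallest p for cold in WT, plus the 5 genes most like the vitellogenin sum and rme-2 in level. Libraries with the same replicate number were checked for pairing. Within a condition, libraries of both strains with the same number deviated together (correlations 0.327 to 0.888, 6 of 6 over 0.1). Control and cold libraries of the same number did not (-0.864 to 0.728, 6 of 15 over 0.1). The sperm-rich libraries share a number within each condition, and among the others different numbers could correlate as highly. WT control 3 had 0.753 with ire-1 control 2 and 0.710 with ire-1 control 3. For WT cold 1 it was 0.612 with ire-1 cold 3 and 0.651 with ire-1 cold 1. Whether the numbers pair libraries cannot be told from this, and the block within each condition assumes it.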

Additional observations from a re-analysis of the deposited data

Results flagged for a closer look

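In 26 groups of library values, 2 held a library apart from the rest by the gap to its nearest neighbour over the range of the group, for which chance flags about 1 group in 20. The level of vit-1 in WT cold 1 was 4669 CPM against 1455 to 1906 CPM in the other 5 WT cold libraries, a gap of 0.860 of the range. Without WT cold 1 the log2 fold change of vit-1 in WT cold was -2.05 (edgeR, adjusted p = 4.04e-05). The summed level of the 12 intestine markers in WT cold 5 was 3763 CPM against 764 to 1708 CPM in the other 5, a gap of 0.685 of the range. Neither library is among the 4 rich in sperm RNA, and no cause was tested.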

How the results depend on the processing

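Over all alternatives, 1093 values of the 10 genes kept their direction and side of the threshold, 37 lost a call, 5 gained one and 40 turned their sign. The causes were not tested. In WT cold, 7 members and 1545 genes were called. The count of members was 0 in experiment 1 alone and 1 in experiment 2 alone, and 3 to 7 leaving out 1 library. The count of genes was 2611 with DESeq2, 3 and 48 in experiments 1 and 2, and 848 to 2632 leaving out 1 library. DESeq2 called 999 higher and 1612 lower, against 318 and 1227 by edgeR. With a replicate block 7 members and 1502 genes were called, and no call of a member changed in WT cold. In ire-1 cold, 8 genes were called, against 17 with RLE factors, 4 with upper-quartile factors, 342 with DESeq2 (1 member), 14 with limma-voom, 0 with the replicate block and with the 2 groups alone, 102 with all 18 libraries, 187 without the sperm-rich libraries and 0 to 50 leaving out 1 library. For the strains in control, 9 genes were called, against 296 with DESeq2 (1 member), 2 with the replicate block, 390 (3 members) with the block within each condition, 47 with all 18 libraries, 3 without the sperm-rich libraries, 1 with the 2 groups alone and 2 to 48 leaving out 1 library. In the cold the strains had 2, against 46 with DESeq2, 5 with all 18 libraries, 6 without the sperm-rich libraries, 22 with the block within each condition and 1 to 3 leaving out 1 library. For the difference in response DESeq2 called 1 gene.

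The difference in response of vit-1 was 0.06, and -0.083 with RLE factors and with DESeq2, -0.082 with scaling without the vitellogenins, -0.063 with no filter and -0.37 without the sperm-rich libraries. That of unc-62 was 0.07, and -0.037 with RLE factors and with DESeq2, -0.038 with scaling without the vitellogenins, -0.025 with no filter and -0.012 without the sperm-rich libraries, and that of ceh-60 was -0.082 without them. Leaving out 1 library, the difference spanned -0.21 to 0.63 for vit-1, -0.074 to 1.03 for vit-2, -0.077 to 0.90 for vit-3, -0.13 to 0.94 for vit-4, -0.074 to 1.01 for vit-5, -0.16 to 0.92 for vit-6, -0.67 to 0.21 for rme-2, -0.16 to 0.87 for ceh-60 and -0.21 to 0.20 for unc-62. Cold in ire-1 spanned -0.10 to 0.34 for rme-2, -0.45 to 0.068 for dsc-4 and -0.72 to 0.090 for ceh-60, and the strains in control -0.023 to 0.86 for rme-2. The strains in the cold spanned -0.56 to 0.34 for vit-2, -0.80 to 0.082 for vit-5, -0.77 to 0.24 for vit-6, -0.0050 to 0.48 for rme-2 and -0.79 to 0.27 for the summed vitellogenins. Scaling moved the median of all genes: for cold in WT it was -0.07 with TMM, 0.02 with RLE and -0.18 with upper-quartile factors, for the difference 0.12, 0.02 and 0.22, and for the strains in control -0.04 with TMM and 0.12 with RLE. Of the 12 named genes of the lists, 32 values lost a call, 8 gained one and 0 turned their sign. Depth limits ceh-60 most, with 27 counts in its lowest library.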
